A study of Homo sapiens with 6 samples.

Results

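Hairpins whose 5p and 3p arms each had an assay of their own were compared by arm in HEK-293FT cells, a fast-growing line derived from human embryonic kidney. Of 42 hairpins considered, 28 had both arms on the card, giving 56 of the 377 human microRNA (miRNA) assays. In 11 of the 28 both assay names carry the arm. In the other 17 hairpins 1 assay has an older name without an arm, and its arm was read from the miRBase name deposited with it. The remaining 14 of the 42 had only 1 arm on the card. Over the whole card 48 hairpins had both arms, 20 of them outside the 42.

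Total RNA came from 3 control and 3 TruB1 knockdown samples, each group having series numbers 1 to 3. All samples were the same line, and the protocol given for every sample, controls included, records siRNA transfection with Lipofectamine RNAiMAX. The siRNA sequences and the control siRNA are not named. TruB1 itself was not measured in these data, so the strength of the knockdown is unknown here. Nothing states whether the 3 samples of a group were separate cultures, and p-values then measure only the spread between these samples, which may be technical.

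A miRNA hairpin is cut from a longer transcript by Drosha and then trimmed by Dicer to a short duplex of its 5p and 3p arms. Argonaute usually keeps 1 strand as the guide and the other is degraded, with a preference for the strand whose 5′ end is less stably paired and which starts with U or A. A seed, bases 2 to 8 of the kept strand, pairs with target mRNAs, so a change of arm changes the targets. TruB1 is a pseudouridine synthase of transfer RNA, and a role of it in miRNA maturation, for let-7 in particular, has been described.

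The sequences that the results turn on are given 5′ to 3′ from RefSeq (GRCh38.p14). 4 precursors are shown with both mature arms in capitals: miR-362, with control and knockdown arm differences that did not overlap; miR-339, with the largest upward mean shift among hairpins measured in every sample; miR-576, with the highest mean change of a single arm; and miR-342, seen almost only as its 3p arm.
miR-362: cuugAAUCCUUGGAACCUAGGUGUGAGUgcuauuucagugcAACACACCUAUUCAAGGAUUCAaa
miR-339: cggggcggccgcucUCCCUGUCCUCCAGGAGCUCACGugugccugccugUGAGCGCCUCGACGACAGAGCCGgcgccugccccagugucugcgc
miR-576: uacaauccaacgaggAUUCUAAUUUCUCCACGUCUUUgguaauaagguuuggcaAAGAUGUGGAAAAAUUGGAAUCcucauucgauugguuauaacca
miR-342: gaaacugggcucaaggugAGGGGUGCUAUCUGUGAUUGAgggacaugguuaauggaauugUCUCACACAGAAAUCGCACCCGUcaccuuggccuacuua

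MIR362 lies on the plus strand at chrX:50008964-50009028, within the bounds of CLCN5, a chloride transporter gene that also spans MIR502 and MIR532. MIR339 lies on the minus strand at chr7:1022933-1023026 within the bounds of CHLSN. MIR576 lies on the plus strand at chr4:109488698-109488795 within those of SEC24B, a coat protein gene of vesicles leaving the endoplasmic reticulum. MIR342 lies on the plus strand at chr14:100109655-100109753 within those of EVL, an actin regulator. Of 24 hairpins matched in RefSeq, 18 lie within the bounds of a protein-coding gene, among them MIR140 in WWP2, MIR499A in the myosin gene MYH7B and MIR615 within HOXC4 and HOXC5. The annotation used holds no exons, so exonic and intronic positions were not told apart.

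Mature arms are shown with their seed in capitals for 4 of the 5 hairpins whose arms kept 1 order in all 6 samples (the fifth, miR-362, is shown above as a precursor). Also shown are the only 2 arms that share a seed among the arms matched in RefSeq.
miR-331-3p: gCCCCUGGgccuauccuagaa
miR-331-5p: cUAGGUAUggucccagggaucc
miR-140-3p: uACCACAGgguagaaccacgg
miR-140-5p: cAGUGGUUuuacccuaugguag
miR-532-3p: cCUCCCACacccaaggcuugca
miR-532-5p: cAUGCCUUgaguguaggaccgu
miR-324-3p: cCCACUGCcccaggugcugcugg
miR-324-5p: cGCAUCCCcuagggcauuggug
miR-501-3p: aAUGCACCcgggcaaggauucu
miR-502-3p: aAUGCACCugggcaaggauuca

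Of the 56 arms, 52 matched a RefSeq mature sequence, and the assay target listed in the deposited data was identical for 46 of them. Bases 1 to 8 were the same for 49. The miR-324-3p target began 3 bases inside the RefSeq arm shown, so its seed in the deposited listing is another one. Also different at the 5′ end were miR-139-3p, with a target that began 1 base inside the RefSeq arm, and miR-146b-3p, with a target not contained in it. miR-501-3p and miR-502-3p differ by C9U and U22A (the miR-501-3p base first, positions from the 5′ end) and have the seed AUGCACC in common. Related assays of this kind may cross-react, which was not tested. The letters GUUC, the core of the sequence that TruB1 acts on in transfer RNA, occurred on the transcript strand of 6 of the 24 matched precursors (25%), against 23.0% of 1562 RefSeq precursors. The longer pattern GUUCNANNC, which contains GUUC, occurred in 0 of the 24, against 1.41% of the 1562.

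Each well gives a threshold cycle (Ct), reached when the fluorescent signal passes a fixed threshold. Wells with more template reach it earlier, and with full amplification efficiency an interval of 1 cycle corresponds to a 2-fold difference in amount. The arm difference is the Ct of the 3p arm minus the Ct of the 5p arm in the same sample. A positive value means that the 5p arm crossed earlier. The U6 reference drops out of it, and so does the amount of RNA if both assays amplify equally well. Its level also depends on how well each of the assays amplifies, which was not measured. Its shift between knockdown and control does not depend on a constant offset between the assays. With unequal amplification a difference in RNA amount between samples would still enter the shift.

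U6 small nuclear RNA averaged Ct 14.7, 14.0 and 12.2 in control series 1 to 3 and 14.9, 15.4 and 13.2 in knockdown series 1 to 3, from 2 to 4 determined wells. Under Ct 35 were 207, 203 and 209 of the 377 assays in control series 1 to 3 and 226 in knockdown series 1, with fewer than in any control in knockdown series 2 and 3. Of the 56 arms under Ct 35 there were between 40 and 43 in controls and between 37 and 44 in knockdown samples. The line has no miRNA that marks it alone. The 4 miRNAs listed as abundant in it (miR-17, miR-20a, miR-92a and miR-106a) lay between Ct 16.2 and 28.04. Of 13 markers of blood, muscle, neuron, endothelium and liver, 3 (miR-451, miR-208 and miR-122) were under Ct 35 in none of the samples. Another 5 (miR-126, miR-9, miR-128a, miR-133a and miR-486) were under Ct 35 in all 6. Their median Ct was 22.8, 24.7, 28.3, 29.2 and 27.9 in that order, beside 22.8 for miR-92a of the abundant list. The rest of the 13 were under Ct 35 in some samples: miR-223, miR-142-3p and miR-124a in 5, miR-1 in 3 and miR-133b in 2.

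Most hairpins showed at least 1 arm. An arm was counted as detected when it was under Ct 35 in at least 3 of the 6 samples. Both arms were detected for 15 of the 28 hairpins, only the 5p arm for 7, only the 3p arm for 4, and neither for 2. Over the 11 hairpins paired by assay names the counts were 6, 3, 2 and 0. Of the 20 other hairpins with both arms on the card, 1 had both arms detected and 13 had neither.

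**Figure D1:**
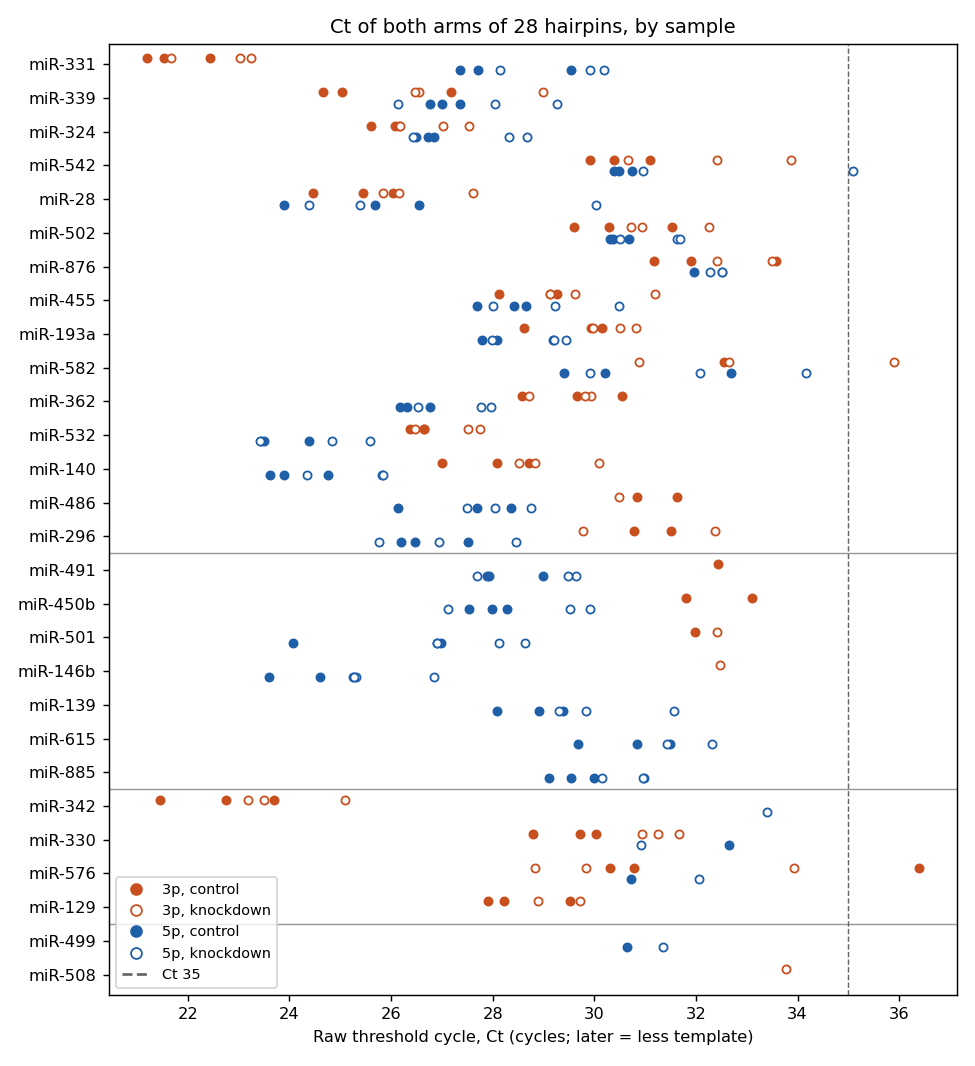
Raw Ct (x axis, cycles) of the 3p arm (orange) and 5p arm (blue) of each of the 28 hairpins (y axis) in 3 control samples (filled) and 3 knockdown samples (open); undetermined wells are not drawn and the dashed line is Ct 35. Grey lines separate the hairpins with both arms detected (15), the 5p arm only (7), the 3p arm only (4) and neither arm (2).

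The 3p-only hairpins were miR-342, miR-330, miR-576 and miR-129. miR-342, known for lymphoid cells and transcribed with EVL, had its 3p arm at Ct 22.8, 23.7 and 21.5 in controls and 23.5, 25.1 and 23.2 in knockdown samples. Its 5p arm crossed in knockdown series 3 alone, at Ct 33.4, with an arm difference of -10.2 cycles in that sample. The lack of the 5p arm was thus the same in control and knockdown cells apart from that well.

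miR-129, a hairpin enriched in brain, showed the same one-sided picture. Its 3p arm crossed at Ct 28.2, 27.9 and 29.5 in controls and at 28.9 and 29.7 in knockdown series 1 and 2, and was undetermined in series 3. Its 5p arm was undetermined in all 6 samples. miR-330-3p lay between Ct 28.8 and 31.7 in all 6 samples, and miR-330-5p crossed only in control series 3 (Ct 32.6) and knockdown series 1 (Ct 30.9). In control series 3 the miR-330 arm difference was -2.93 cycles and in knockdown series 1 it was 0.02, so these pairs of wells give no common preference.

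The 5p-only hairpins were miR-139, miR-146b, miR-450b, miR-491, miR-501, miR-615 and miR-885. miR-146b-5p, known as a target of NF-kB that restrains inflammatory signalling, was measured in every sample. It lay at Ct 24.6, 25.3 and 23.6 in controls and 25.3, 26.8 and 25.3 in knockdown samples, and its 3p arm crossed once, in knockdown series 1, 7.16 cycles later. miR-139-5p, from within the bounds of PDE2A, lay between Ct 28.1 and 31.6 in all 6 samples with no crossing of its 3p arm. miR-885-5p, a hairpin known from brain, lay between Ct 29.1 and 31.0 in all 6, and its 3p arm did not cross either. The listed targets of the miR-146b-3p and miR-139-3p assays differ from the RefSeq arms at the 5′ end. Whether this affects their detection was not tested.

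Some of the 5p-only hairpins gave a late 3p well. miR-615-5p, from the HOXC locus, crossed in 5 samples between Ct 29.7 and 32.3, with its 3p arm undetermined throughout. miR-491-5p lay between Ct 27.7 and 29.6, with the 3p arm seen once, in control series 2, 3.44 cycles later. For miR-450b, from the Xq26 cluster on the X chromosome, the 3p arm followed by 3.52 and 5.12 cycles in control series 1 and 2 and was undetermined in the other 4 samples, all 3 knockdown samples included. miR-501, of the CLCN5 cluster, had its 3p arm in 1 sample of each group, 7.91 cycles after the 5p arm in control series 3 and 3.78 after it in knockdown series 2. All of these late 3p wells crossed at Ct 31.8 or later.

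miR-499, from within the myosin gene MYH7B, and miR-508, of the testis-enriched Xq27 cluster, were the hairpins with neither arm detected. miR-499-5p crossed in 1 control sample (Ct 30.6) and 1 knockdown sample (Ct 31.3), and miR-508-3p in 1 knockdown sample (Ct 33.8). Of the Xq27 neighbours of miR-508 listed for comparison, miR-506, miR-507, miR-510 and miR-513-5p were under Ct 35 in 0 of the 6 samples and miR-509-5p in 2, at Ct 31.4 in control series 2 and 32.4 in knockdown series 1.

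Arm preference could be followed in every sample for 10 hairpins. The 3p arm crossed first in all 6 samples for miR-331 and miR-324, and the 5p arm crossed first in all 6 for miR-140, miR-362 and miR-532. The other 5 (miR-28, miR-193a, miR-339, miR-455 and miR-502) had both signs among their 6 values.

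Among these 10 hairpins miR-331 had the largest arm difference in either direction, with its 3p arm first. Its arm difference was -6.18, -7.12 and -6.16 cycles in controls and -6.46, -6.96 and -6.88 in knockdown samples. The group means, -6.49 ± 0.55 (SD, n = 3) and -6.77 ± 0.27 (SD, n = 3), differed by less than the spread between controls. miR-331-3p itself was the earliest of the arms by control mean, at Ct 21.7 ± 0.64 (SD, n = 3).

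miR-324 kept the same order of arms by a small margin. Its values were -0.87, -0.57 and -0.77 cycles in controls and -0.25, -1.13 and -1.29 in knockdown samples. The control values lay inside the knockdown range.

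At the other end stood miR-140, the miRNA of cartilage, which is transcribed with the ubiquitin ligase gene WWP2. Its 3p arm followed the 5p arm by 4.46, 3.95 and 3.11 cycles in controls and by 4.49, 4.27 and 2.66 in knockdown samples. The group means were 3.84 ± 0.68 and 3.81 ± 1.00 (SD, n = 3 each), and series 3 had the smallest value in both groups.

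miR-532 and miR-362, neighbours within the bounds of CLCN5, also favoured the 5p arm. The miR-532 arm difference was 2.94, 2.26 and 3.15 cycles in controls and 3.06, 1.93 and 2.93 in knockdown samples, and the groups overlapped. For miR-362 it was 2.40, 3.34 and 3.79 in controls and 2.19, 2.17 and 1.84 in knockdown samples. Every knockdown value of miR-362 lay below every control value.

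The third member of that cluster measured in every sample, miR-502, had no steady order. Its values were 0.84, -0.72 and -0.06 cycles in controls and 0.44, -0.91 and 0.58 in knockdown samples. Series 2 was the lowest sample in each group. Hairpins within the bounds of CLCN5 had control arm differences from 3.18 ± 0.71 for miR-362 to 0.02 ± 0.78 for miR-502 (SD, n = 3 each). These levels come from different assays and depend on how well each amplifies, so arm use was not compared between the hairpins.

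miR-455, which lies within the bounds of the collagen gene COL27A1, behaved in the same mixed way. It gave 1.45, -0.31 and 0.60 cycles in controls and 1.13, -0.87 and 1.97 in knockdown samples. Series 2 was again the lowest in both groups.

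miR-193a, a hairpin located close to the miR-365 gene, had the 5p arm first in every sample except 1. The values were 2.38, 1.85 and -0.58 cycles in controls and 1.99, 1.61 and 1.06 in knockdown samples. The exception was control series 3, and without it the arms kept 1 order in all samples.

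miR-28 and miR-339 were the least steady. The miR-28 arm difference was -1.09, 0.37 and 0.56 cycles in controls and 1.45, 2.23 and -3.87 in knockdown samples. For miR-339 it was -1.98, 0.41 and -2.69 in controls and 0.41, 0.93 and -2.81 in knockdown samples. In both hairpins knockdown series 3 was the lowest of the 6 values, while the other knockdown samples were at or above the highest control value.

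**Figure D2:**
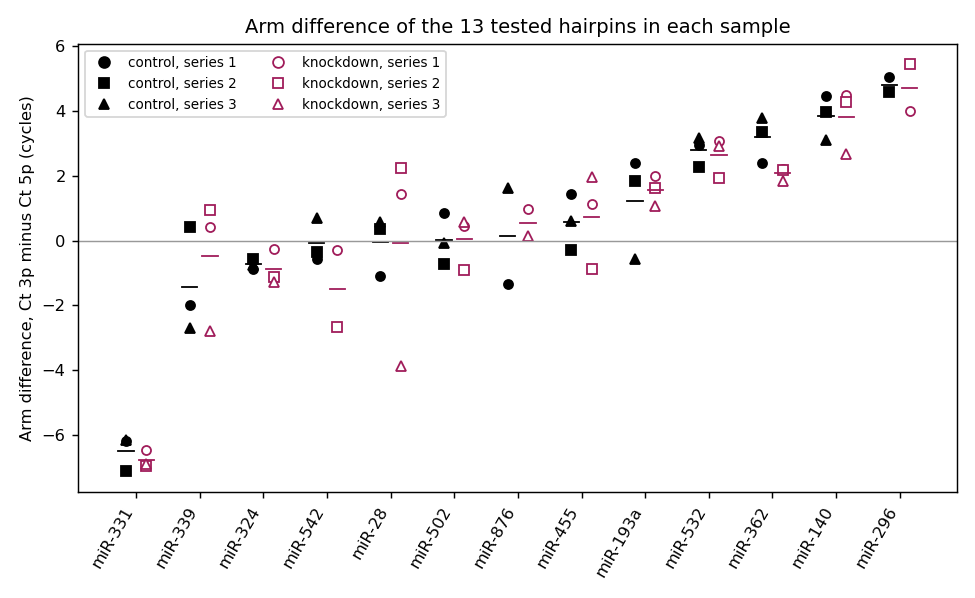
Arm difference (y axis, Ct of the 3p arm minus Ct of the 5p arm, cycles) of the 13 tested hairpins (x axis, ordered by control mean) in control (filled) and knockdown (open) samples, with symbols for the series numbers 1 to 3 and short lines for group means. Values run from about the -7.12 of miR-331 to the 5.44 of miR-296, and the groups overlap in most hairpins.

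For miR-28 the raw wells of each arm were also read. miR-28-5p crossed at Ct 26.5, 25.7 and 23.9 in controls and at 24.4, 25.4 and 30.0 in knockdown samples. miR-28-3p crossed at Ct 25.5, 26.0 and 24.5 in controls and at 25.8, 27.6 and 26.2 in knockdown samples. The late value of knockdown series 3 was confined, of these arms, to the 5p well. miR-708-5p, which has a seed related to that of miR-28-5p, read Ct 25.0, 25.9 and 24.8 in controls and 24.8, 27.4 and 26.0 in knockdown samples, with no such late well in series 3.

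Another 5 hairpins had both arms detected but not in every sample. miR-296, an imprinted hairpin of the GNAS region, had 5.04 and 4.57 cycles in control series 1 and 2 and 4.01 and 5.44 in knockdown series 1 and 2, and its 3p arm was undetermined in series 3 of both groups. miR-486, a hairpin of red cells and muscle, had 3.16 and 5.49 in control series 1 and 3 and 3.00 in knockdown series 3. Both therefore favoured the 5p arm wherever it could be compared.

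miR-582 also had the 5p arm first in each of 4 samples, by 3.15 cycles in control series 1 and by 0.96, 1.73 and 0.57 in knockdown series 1 to 3. With 1 control value and 1 knockdown value respectively, miR-582 and miR-486 could not be tested. miR-542, of the Xq26 cluster, gave -0.57, -0.36 and 0.71 in controls and -0.30 and -2.68 in knockdown series 1 and 2. miR-876 gave -1.36 and 1.61 in control series 1 and 3 and 0.97 and 0.13 in the knockdown samples of the same numbers, so neither had a steady order.

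The arm difference varied less between samples of a group than the ratio of an arm to U6 did. Over the 10 hairpins the median within-group SD was 0.83 cycles for the arm difference and 1.55 for the log2 ratio of a single arm to U6. For the raw Ct of a single arm it was 0.85. The arm difference varied least for miR-324 (SD 0.41) and miR-331 (SD 0.43) and most for miR-339 (SD 1.84) and miR-28 (SD 2.43).

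In 17 hairpins only 1 arm was detected or the mean gap was over 2 cycles, and the earlier or only arm was 5p in 12 and 3p in 5. miR-576 and miR-330 are counted as 3p by detection only. In the 2 samples with both wells the 5p arm of miR-576 crossed first. The arm differences of miR-330 were -2.93 and 0.02 cycles in its 2 such samples. By the deposited targets the first base of the earlier arm was U in 6, A in 6, C in 2 and G in 3, and that of the later arm was U in 5, A in 5, C in 5 and G in 2. The earlier arm had more A or U in its first 4 bases in 7 hairpins, fewer in 4 and the same number in 6. These counts describe the hairpins and carry no test, since the assays of a pair amplify with efficiencies that are not known.

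The main comparison asked whether arm preference shifted when TruB1 was knocked down. No shift passed the test: limma with Benjamini-Hochberg adjustment called 0 of the 13 hairpins tested, against 0% of the 14 tested over the whole card, and 0 of the 14 had an unadjusted p under 0.05. With the series number as a block the same 2 counts were 0 and 0. With limma's robust and trended variance 2 of the 14 had an unadjusted p under 0.05 and 0 passed the adjustment, with a smallest adjusted p of 0.306.

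The shift was below 0, toward relatively more 3p arm, in 8 of the 13 and above 0 in 5. Over the card 64.3% of the 14 arm differences were lower in knockdown. The median shift was -0.04 cycles, beside -0.06 over the 14, and 10 of the 13 shifts were within 0.5 cycles of 0. All 13 of the 95% intervals held 0 and also reached past 1 cycle on at least 1 side, extending from 1.35 to 3.28 cycles either way of the shift. A 2-fold change of arm use in at least 1 direction therefore lay inside the interval of every tested hairpin.

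**Figure D3:**
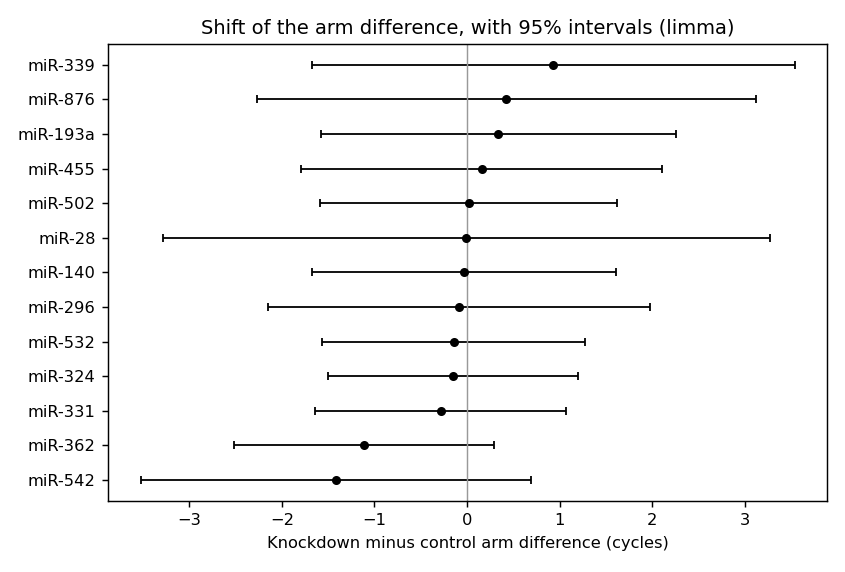
Shift of the arm difference (x axis, knockdown minus control, cycles) for the 13 tested hairpins (y axis), points with 95% intervals from limma. The shifts run from -1.42 (miR-542) to 0.93 (miR-339) and every interval crosses 0.

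miR-362 had the smallest p of the 13. Its shift was -1.11 cycles (SE 0.62, 95% interval -2.52 to 0.30, limma adjusted p = 0.884, or 0.655 with the block). Within the series the shift was -0.21, -1.17 and -1.95 cycles. It was the only hairpin without overlap between groups among the 11 of the card measured in all 6 samples (9.09%), a count of 1. Of the 161 single assays measured in all 6, 0 (0%) were without overlap as log2 ratios to U6. That measure had a wider median within-group SD (1.55 against 0.83 over the 10 hairpins). The shares therefore do not compare directly and do not set miR-362 apart.

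Both arms of miR-362 can be read from the wells. Ct of the 3p arm was 28.6, 29.7 and 30.6 in controls and 28.7, 29.9 and 29.8 in knockdown samples, and of the 5p arm 26.2, 26.32 and 26.8 in controls and 26.5, 27.8 and 27.97 in knockdown samples. Relative to U6 the 3p arm changed by 1.01 on the log2 scale (SE 1.47) and the 5p arm by -0.10 (SE 1.47), with a limma adjusted p of 0.999 for each. The 3p change was -0.0043, 1.21 and 1.84 in series 1 to 3, and the 5p change -0.21, 0.03 and -0.11. In raw Ct the control and knockdown means were 29.6 and 29.5 for the 3p arm and 26.4 and 27.4 for the 5p arm. Which arm of miR-362 moved thus depends on the reference. The 2 other tested hairpins of the CLCN5 cluster had shifts near 0, -0.14 (SE 0.63) for miR-532 and 0.02 (SE 0.71) for miR-502. Differences between the shifts of cluster members were not tested.

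The largest upward mean shift was that of miR-339, at 0.93 cycles (SE 1.15, 95% interval -1.67 to 3.54, limma adjusted p = 0.996). Its series shifts were 2.39, 0.53 and -0.12. With 1 sample left out it ran from 0.22 (without knockdown series 2) to 2.09 (without knockdown series 3). The mean shift was 0.34 (SE 0.84) for miR-193a and 0.16 (SE 0.86) for miR-455, each with 1 of 3 series above 0.

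The mean shift of miR-28 lay nearest to 0 and its series values were far apart. It was -0.0083 cycles (SE 1.45), made of 2.54, 1.86 and -4.43 in series 1 to 3. Without knockdown series 3 the mean was 1.89 (limma adjusted p = 0.127). The mean was also above 0 without control series 2 (0.20) or control series 3 (0.30), and it was -1.15 without knockdown series 2.

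Among the tested hairpins miR-331, miR-296 and miR-140 had the largest control arm differences in either direction, and their shifts were small beside those differences. The next largest, miR-362 (3.18 cycles in controls), had the shift of -1.11 given above. The shift of miR-331 was -0.29 cycles (SE 0.60), of miR-140 -0.04 (SE 0.72) and of miR-296 -0.09 (SE 0.87, from 2 samples a group). miR-324, with a control mean of only -0.74, had a shift of -0.15 (SE 0.59), with series values of 0.62, -0.55 and -0.52. The lowest mean shift was that of miR-542, -1.42 (SE 0.91, limma adjusted p = 0.884, from 3 control and 2 knockdown samples). It rested on knockdown series 2, where the 5p arm crossed at Ct 35.1, and its series values were 0.27 and -2.32. With undetermined wells set to Ct 40 it was -2.96.

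Each arm was also compared on its own, relative to U6. Of the 56 arms 39 passed the filter and were tested on the log2 ratio to U6, 17 of them 3p and 22 5p. limma called 0 of the 39, against 0% of 195 assays, and 0 of the 195 had an unadjusted p under 0.05. The means of 23 arms were lower in knockdown and 16 higher, beside 59.5% lower over the 195 assays. The median change was -0.08, and -0.10 over all 195. With the commonly detected assays as reference in place of U6 the 2 medians were 0.04 and 0.04, and with raw Ct and no reference the median over the arms was -0.98, so the split of higher and lower arms follows the reference.

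With the series number as a block 10 of 189 assays (5.29%) had an unadjusted p under 0.05 and 0 passed the adjustment; 1 of the 10 was an arm of these hairpins, miR-576-3p. Its Ct was 30.8, 30.3 and 36.4 in controls and 28.8, 29.8 and 33.9 in knockdown samples. Relative to U6 it was higher in knockdown in 3 of 3 series, by 2.08, 1.93 and 3.55 on the log2 scale. The mean change was 2.52 (SE 1.54, limma adjusted p = 0.999), or SE 0.493 with an adjusted p of 0.243 under the block. Series 3 was the late pair in both groups, and the control well of that pair lay above Ct 35. miR-576-5p crossed in control series 1 and knockdown series 3 only, with arm differences of 0.04 and 1.88 cycles, so no shift of arm use could be computed for it.

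**Figure D4:**
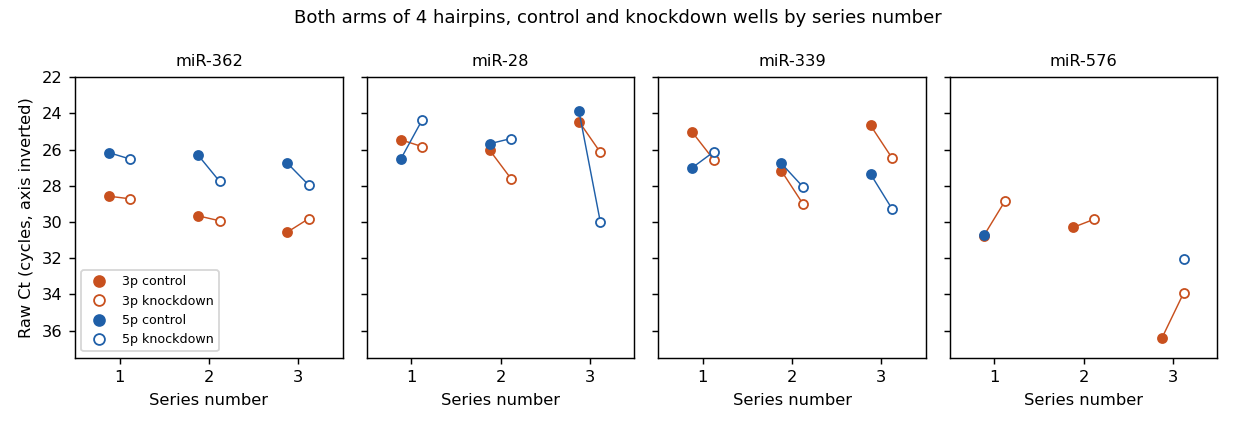
Raw Ct (y axis, inverted so that more template is higher) of the 3p (orange) and 5p (blue) arms of 4 hairpins in control (filled) and knockdown (open) samples, joined within a series number (x axis). The miR-28-5p well of knockdown series 3 lies at Ct 30.0, and miR-576-3p is earlier in the knockdown sample of each series.

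Of the 33 arms measured in all 6 samples 6 (18.2%) were lower in 3 of 3 series and 2 (6.06%) higher, against 19.3% and 4.35% of 161 assays. The shares of these arms were close to those of the card. The lowest mean change was that of miR-501-5p, at -0.99 (SE 1.46), with -2.96 in series 3 beside 0.15 in series 1 and -0.17 in series 2. Next were both arms of miR-542, -0.94 (SE 1.64) for 5p, from 3 control and 2 knockdown samples, and -0.94 (SE 1.48) for 3p. miR-542-3p was lower in 3 of 3 series, with values of -0.60, -0.55 and -1.68, and so was miR-330-3p, at -0.87 (SE 1.46), with series values of -2.02, -0.16 and -0.43. None of these arms passed limma's test (adjusted p = 0.999 for each).

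Set side by side, both arms had lower means in 6 of the 13 hairpins, both had higher means in 4, and the arms went opposite ways in 3 (miR-362, miR-876 and miR-339). Where an arm had undetermined wells the arms of a hairpin rest on different samples. miR-339-3p had -0.80 (SE 1.46) and was lower in 3 of 3 series, and miR-339-5p had 0.13 (SE 1.47) with both signs among its series. The mean of both arms was called in 0 of 14 hairpins (0%) by limma, 0 had an unadjusted p under 0.05, and the smallest adjusted p was 0.949, or 0.645 with the block.

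**Figure D5:**
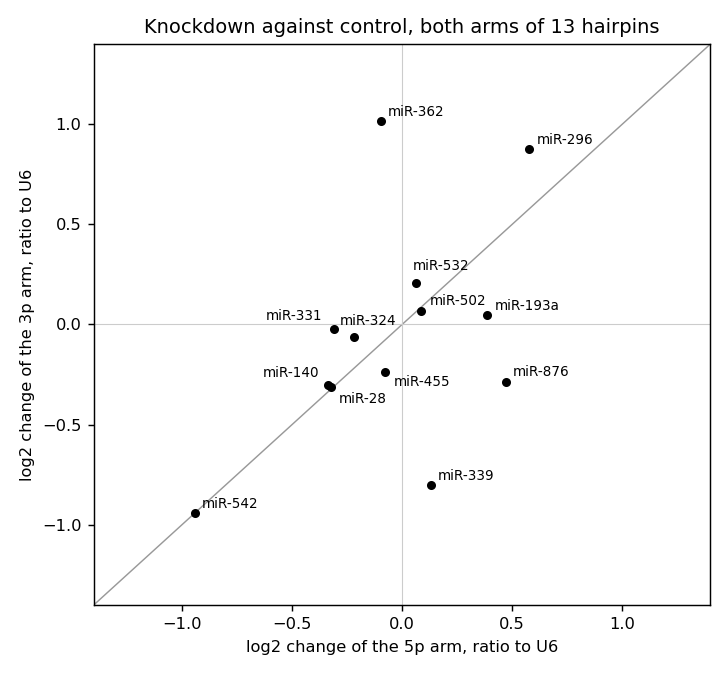
Change of the 3p arm (y axis) against change of the 5p arm (x axis), knockdown minus control means of the log2 ratio to U6, for the 13 tested hairpins; the grey line marks equal change. miR-362 lies farthest above the line and miR-339 farthest below it.

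The 14 hairpins with 1 arm on the card were described by that arm. Of these 10 were under Ct 35 in all 6 samples and tested, 6 with lower and 4 with higher means, and limma called 0 of the 10. The changes ran from -0.82 for miR-483-5p, from within the imprinted IGF2 gene, to 1.22 for miR-671-3p. miR-671-3p read Ct 29.6, 31.5 and 31.3 in controls and 29.7, 30.9 and 30.9 in knockdown samples. Its limma adjusted p was 0.999. With the block it was the only 1 of the 10 with an unadjusted p under 0.05, against 10 of 189 assays (5.29%) over the card. miR-500-5p, the further CLCN5 hairpin of this kind, had a mean change of -0.42.

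The remaining 4 of the 14 were rarely seen, miR-188-3p in 0 samples, miR-490-3p and miR-589-5p under Ct 35 in 1 each and miR-509-5p in 2. Cluster partners had mean log2 changes of -0.43 for miR-660 beside the CLCN5 hairpins, of -0.61, 0.11 and 1.46 for miR-424, miR-503 and miR-450a beside miR-450b and miR-542, of -0.57 for miR-191 beside miR-425, and of -0.12 for miR-365 beside miR-193a. The miR-450a well of knockdown series 3 was undetermined. Its mean change therefore left that sample out but kept control series 3, the lowest of its control log2 ratios (-18.9). None of these partners passed limma's test (adjusted p = 0.999 for each), and their signs were mixed within the Xq26 cluster.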

How the data were processed

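miRNAs of 3 control and 3 knockdown samples were measured on TaqMan cards (Megaplex Pool A, 40 cycles), per the labels' protocols. The authors deposited raw Ct values, another unit than counts, and a ratio to U6 per assay; threshold settings are not given in the sources used here. The deposited ratio was taken to log2. Groups and series numbers come from the titles. A hairpin was tested when each arm was under Ct 35 in at least 3 samples and the arm difference was determined in at least 2 samples a group; undetermined wells were missing. limma 3.58.1 (lmFit, eBayes, two-sided, group only, R 4.3.3) was run over all hairpins with both arms and over all assays, called at Benjamini-Hochberg adjusted p under 0.05, after a check on simulated data. The number of arrays limits the precision. Hairpins, lists and tests were chosen with earlier results of these data known. Named with all values were the hairpins measured in every sample, listed clusters and tissue-enriched hairpins, and those detected by 1 arm. Series numbers paired the samples in single assays, with correlations of same-numbered deviations of 0.416, 0.527 and 0.625 over 161 assays, a pairing that comes from the data and not from a stated design; for arm differences (11 hairpins) they were -0.382, 0.751 and 0.152. Alternatives are given in the closing section. The deposited fold changes were not used here. RefSeq entries were matched by miRNA name.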

Additional observations from a re-analysis of the deposited data

How the results depend on the processing

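The counts of called arm shifts, hairpin means and single assays were 0 under every setting run, the replicate block included, which changed no call (smallest adjusted p 0.655 for arm shifts). The median arm shift, -0.04 cycles, was 0.34 over the 5 tested hairpins paired by assay names only, an alternative chosen after the data were seen. Leaving out 1 sample at a time gave medians from -0.37 (without knockdown replicate 1) to 0.21 (without knockdown replicate 2). Hairpins without overlap between groups numbered 1 of 10. The count was 2 of 15 with undetermined wells at Ct 40 and 0 of 10 after quantile normalization. With 1 sample left out it was 3 of 11 without knockdown replicate 3 and 2 of 10 without control replicate 2 or knockdown replicate 1. Without any other sample it was 1 of 10. Groups separate more easily with 2 samples on 1 side, and the shares over the card in these settings were not computed. After quantile normalization the sign turned for miR-140 (0.20), miR-28 (0.14) and miR-502 (-0.12), and the cause was not tested. With 1 sample left out 17 of 68 single shifts changed sign. Their ranges were -0.40 to 0.54 for miR-140, -0.56 to 0.92 for miR-193a, -1.15 to 1.89 for miR-28, -0.47 to 0.049 for miR-324, -0.45 to 0.97 for miR-455, -0.35 to 0.49 for miR-502 and -0.41 to 0.21 for miR-532. The shifts of miR-331 (-0.60 to -0.12), miR-339 (0.22 to 2.09), miR-362 (-1.50 to -0.81) and miR-542 (-1.66 to -1.03) kept their direction but not their size in the leave-one-out fits that tested them. Those of miR-296 and miR-876 were tested only without a sample that they did not use. With undetermined wells at Ct 40 the shift of miR-542 was -2.96, of miR-876 2.98 and of miR-296 -0.37. The median change of the tested arms against U6 ran from -0.78 without knockdown replicate 1 to 0.68 without knockdown replicate 3. The 3 samples a group limit the precision.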
